A study of Drosophila melanogaster with 4 samples.

Results

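The regions described here are the 1 kb bins of Rhino-dependent piRNA source loci (RD-SL) that the deposited tables class as Enok-bound and that lie on assembled chromosome arms, the X or chromosome 4 of *Drosophila melanogaster* (UCSC dm3). A bin was included when its sequence name did not contain Het, the mark of heterochromatin that dm3 keeps apart, and when its value was above 0 in all 4 libraries. The rule gave 314 bins in 12 clusters. They made up 13.3% of the 2363 bins in 88 clusters of both tables, and 40.7% of the Enok-bound bins. The requirement for values above 0 removed no bin on these arms, where the lowest value was 0.164 RPM, the reads scaled to library depth. Cluster 1, known as 42AB, held 130 of the bins (41.4%), and results are therefore given with and without it.

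Rhino (Rhi) is the germline-specific HP1 paralogue that reads the H3K9me3 mark through its chromodomain. With Deadlock and Cutoff it forms a complex that licenses transcription of dual-strand piRNA clusters, loci full of transposon fragments that lack ordinary promoters and give rise to precursors from both strands. The piRNAs cut from these precursors guide Piwi proteins to transposons in the ovarian germline, and 42AB is a major cluster of this type. Enok is the fly member of the KAT6 family, whose enzymes acetylate histone H3.

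The question was how Rhi occupancy at these loci responds to depletion of Enok in the germline. The *enok*_KD females carried the shRNA transgene TRiP.HMS02634 and the GFP_KD control females carried VALIUM20-EGFP.shRNA.1, each inserted at attP2. Both groups had MTD-Gal4, a set of driver transgenes (GAL4-nos.NGT, GAL4::VP16-nos.UTR and an otu-GAL4::VP16 insertion) under germline promoters, so knockdown was directed to the germline whereas the chromatin came from whole ovaries that also hold somatic cells. RNAi took place at 29 °C, and adults were 2 to 3 days old and had received wet yeast for 1 to 2 days. An IP and an input library were made from *enok*_KD ovaries, and likewise from GFP_KD ovaries. Each group had 1 library, so no difference below has a replicate check within these data and no p-value is given. The study separately measured Rhi at sites in 42AB by ChIP-qPCR, tested by Student's t-test. It reported a severe loss of Rhi there after *enok* knockdown, and those measurements are not used here. The antibody is named as anti-Rhino in the title and protocol, whereas the design text names RNA polymerase II. The class Enok-bound is a label of the table whose rule is not given in the sources used here. No Enok peak at 42AB is described by the study, and binding of Enok was not measured in these libraries, so the class serves as a name only.

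The libraries held 6658000 uniquely mapped reads in the *enok*_KD IP and 8196000 in the *enok*_KD input, against 8025000 in the GFP_KD IP and 7742000 in the GFP_KD input, to the nearest 1000. These depths and the whole reads behind each bin were recovered from the values, and the recovered reads are lower limits. A bin held a median of 72.5 and 38.0 reads in the *enok*_KD IP and input, against 143 and 36.0 in the GFP_KD IP and input. Occupancy is the log2 of IP RPM over input RPM, and the change is occupancy in *enok*_KD minus occupancy in GFP_KD. Because values are scaled to library depth, falls and rises are relative to the rest of each library and do not give absolute levels of Rhi. The counting error (SE) of a bin's change had a median of 0.40. It covers the sampling of reads only, as PCR copies are not independent molecules.

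Over the 314 bins, Rhi occupancy was lower in *enok*_KD. Median occupancy was 1.45 in *enok*_KD and 2.16 in GFP_KD, which is 2.73-fold over input in *enok*_KD and 4.46-fold in GFP_KD. The median change per bin was -0.59 (95% interval -0.75 to -0.44, from the spread over bins only, which is too narrow where adjoining bins resemble each other), with an interquartile range of -1.35 to 0.01. Occupancy was lower at 232 bins (73.9%), where the share over all bins of both tables was 53.7%. It fell by 2-fold or more at 111 bins (35.4%, Wilson 95% interval 30.3 to 40.8), compared with 12.8% of all bins. It rose by 2-fold or more at 8 bins (2.55%, Wilson interval 1.30 to 4.95), compared with 10.2% of all bins. By the counting error of each bin at the 95% level, 134 bins fell (42.7%, against 10.7% of all bins) and 15 rose (4.78%, against 11.7% of all bins).

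The inputs of the same bins did not move in this way. Median input was 11.1 RPM in *enok*_KD and 11.2 RPM in GFP_KD, and the median log2 difference between the inputs was -0.00067 (interval -0.05 to 0.05). The inputs differed by 2-fold or more at 5 bins. Of these, 1 was lower (0.318%, against 4.23% of all bins) and 4 were higher (1.27%, against 2.96%) in *enok*_KD. Beyond the counting error the inputs differed at 30 bins (9.55%), a higher share than the 6.98% of all bins. The IP values alone changed by a median of -0.57.

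Most of this difference was in 42AB. Its median IP was 4.61-fold over input in *enok*_KD and 13.9-fold in GFP_KD, and the median change was -1.31 (interval -1.52 to -1.13), a drop of occupancy to 0.402 of the GFP_KD level. Occupancy was lower at 125 of 130 bins (96.2%, against 53.7% of all bins of both tables). It fell by 2-fold or more at 88 (67.7%, against 12.8%) and by 4-fold or more at 34 (26.2%, against 3.17%). It rose by 2-fold or more at 0 bins, against 10.2% of all bins. Beyond the counting error, 104 bins fell (80.0%, against 10.7% of all bins) and 0 rose (against 11.7%). By recovered reads, the 130 bins held 35852 reads of the *enok*_KD IP (0.538% of the library) and 105990 reads of the GFP_KD IP (1.32%), while the inputs held 7026 reads (0.0857%) in *enok*_KD and 6860 reads (0.0886%) in GFP_KD.

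Outside 42AB, the change over the 184 bins of 11 clusters was much smaller. Median occupancy was 0.87 in *enok*_KD and 0.99 in GFP_KD, and the median change was -0.13 (interval -0.26 to -0.01), compared with -0.01 over the 2049 bins of the tables that were no members. Occupancy was lower at 107 bins (58.2%, against 50.7% of those other bins) and fell by 2-fold or more at 23 (12.5%, Wilson interval 8.48 to 18.1, against 9.32%). It rose by 2-fold or more at 8 bins (4.35%, against 11.4%). Beyond the counting error, 30 bins fell (16.3%, against 5.81%) and 15 rose (8.15%, against 12.7%). Over all 2363 bins, which include 42AB, 53.7% were lower, 12.8% fell and 10.2% rose by 2-fold or more. The 12.5% that fell by 2-fold or more was thus near the share over all bins. Beyond the counting error, 10.7% of all bins fell and 11.7% rose.

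**Figure D1:**
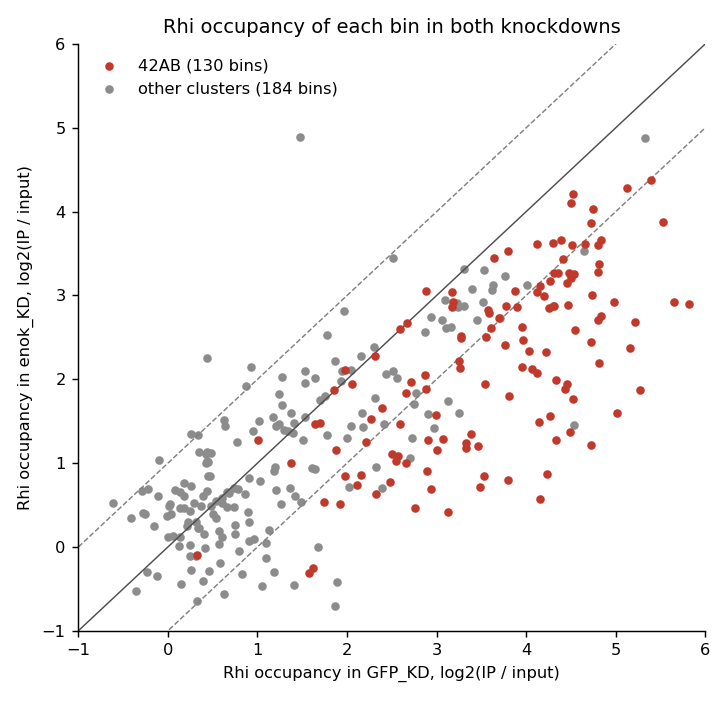
Rhi occupancy of each of the 314 bins in *enok*_KD (vertical axis) against GFP_KD (horizontal axis), both as log2 of IP over input, with the 130 bins of 42AB in red and the 184 bins of the other clusters in grey. The solid line marks equal occupancy and the dashed lines a 2-fold difference. In 42AB 125 bins lie below the solid line, and outside 42AB 107 do.

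The other bins of the tables served as a comparison. Enok-unbound bins on the same arms (552 bins in 28 clusters) had a median occupancy of 0.85 in *enok*_KD and 0.63 in GFP_KD, with a median change of 0.15. Of these bins, 27 (4.89%) fell and 84 (15.2%) rose by 2-fold or more. Enok-bound bins on Het sequences (458 bins in 10 clusters) had a median occupancy of 0.84 in *enok*_KD and 0.95 in GFP_KD, and a median change of -0.04. Of these, 49 (10.7%) fell and 35 (7.64%) rose by 2-fold or more. Enok-unbound bins on Het sequences (1039 bins in 38 clusters) had a median change of -0.06, and 115 (11.1%) fell and 114 (11.0%) rose by 2-fold or more. Both shares that fell on Het sequences were near the 12.5% of the member bins outside 42AB. The bins on assembled arms outside 42AB thus had a median change between those of these sets and that of 42AB. Bins are neighbours within a library and were not treated as replicates, so these differences were not tested.

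Bins of high occupancy were considered on their own, because 42AB was rich in them. Among members with a mean occupancy of both knockdowns of 3 or more, 84 of 86 bins were lower in *enok*_KD, with a median change of -1.06, and 68 of the 86 were in 42AB. Outside 42AB this level was reached by 18 bins, of which 15 were in cluster 5 and 1 each in clusters 3, 11 and 25. Of these 18 bins, 16 were lower, with a median change of -0.47. The bin of cluster 25, from 24106001, reached the level with 1 input read in *enok*_KD. The 34 bins of the same level in the rest of the tables, from 16 clusters, were mostly higher in *enok*_KD. Of them 9 were lower, and their median change was 1.04.

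Within 42AB the size of the change followed the position in the cluster. The bins ran from 2144349 to 2386719 on 2R, a span of 242 kb, and were divided into windows of 40 kb. The medians of the windows from 2120001 to 2160000 (13 bins) and from 2160001 to 2200000 (33 bins) were -0.79 and -1.21. From 2200001 to 2240000 (19 bins) the median change reached -2.73, and all 19 bins fell by 2-fold or more, 15 of them by 4-fold or more. The median change is a percent change of -84.9%. Median occupancy in this window was 1.57 in *enok*_KD and 4.49 in GFP_KD.

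The window from 2240001 to 2280000 held only 4 bins, with a median change of -1.79. From 2280001 to 2320000 (16 bins) the median was -2.27, and all 16 bins again fell by 2-fold or more. Toward the right end the changes became smaller. The median was -1.01 from 2320001 to 2360000 (28 bins) and -0.73 from 2360001 to 2400000 (17 bins). The change was thus least at both ends of the cluster and deepest from 2200001 to 2240000 and from 2280001 to 2320000. The sparse window between them had a smaller change, with a median of -1.79 over 4 bins. Over the 130 bins, Spearman's rho between the change and the distance to the nearer end of the cluster was -0.79, whereas for the input change it was -0.20 and for GFP_KD occupancy 0.27. These bins share 4 libraries and neighbours resemble each other, and the windows and this measure were chosen after the values were seen.

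**Figure D2:**
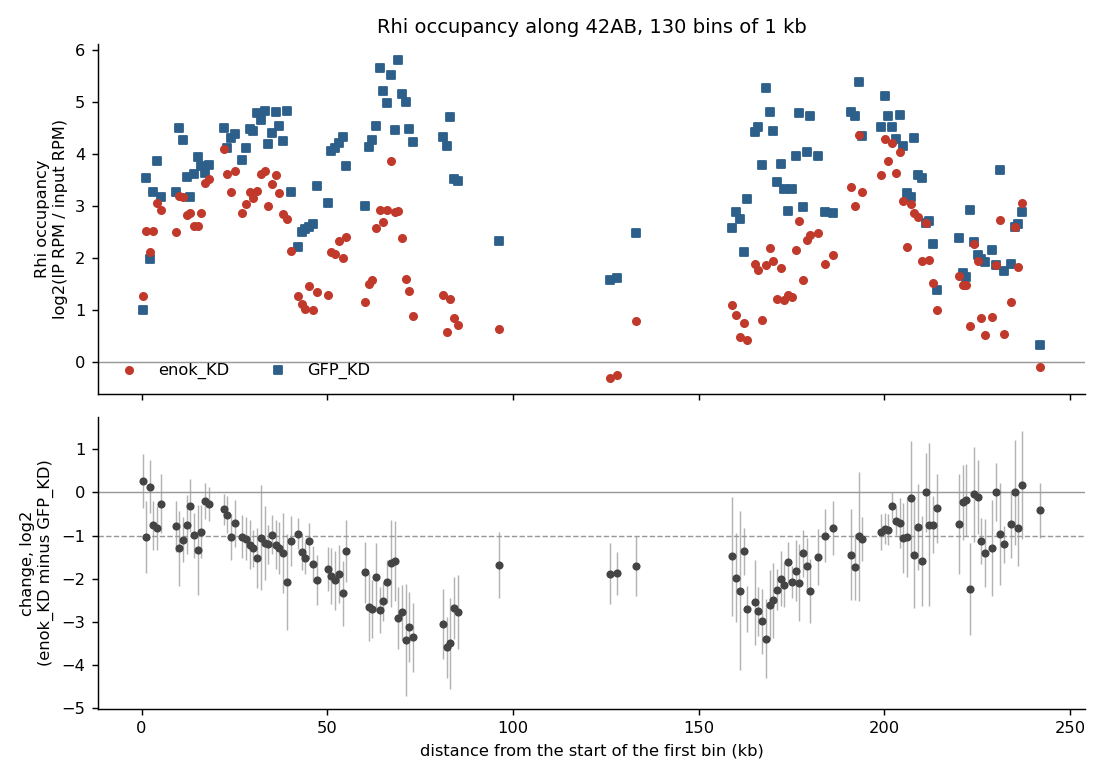
Rhi occupancy along 42AB. The upper panel shows log2 of IP over input for each of the 130 bins in *enok*_KD (red circles) and GFP_KD (blue squares) against the distance in kb from the start of the first bin, and the lower panel shows the change with its 95% counting interval, with a dashed line at a 2-fold fall. The change is smaller toward both ends and reaches -3.59 in the bin from 2226001.

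The 2 steepest falls came from adjoining bins with stable inputs. At 2226001 to 2227000 on 2R, the IP value was 17.5 RPM in *enok*_KD and 191 RPM in GFP_KD, and the input was 11.8 RPM in *enok*_KD and 10.7 RPM in GFP_KD. Its change of -3.59 ± 0.36 (counting SE) was the largest fall of all members. In the bin from 2227001, the IP value was 7.39 RPM in *enok*_KD and 93.8 RPM in GFP_KD, the inputs were 3.18 RPM in *enok*_KD and 3.55 RPM in GFP_KD, and the change was -3.51 ± 0.54. In both bins the IP was over 10 times lower in *enok*_KD while the inputs were within their counting error.

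The next falls in size were at bins starting at 2215001 (-3.41 ± 0.66), 2312001 (-3.40 ± 0.47) and 2217001 (-3.36 ± 0.41). At 2215001 the IP was 26.6 RPM in *enok*_KD and 231 RPM in GFP_KD, with inputs of 8.76 RPM in *enok*_KD and 7.14 RPM in GFP_KD. At 2312001 the IP was 78.4 RPM in *enok*_KD and 438 RPM in GFP_KD, with inputs of 21.5 RPM in *enok*_KD and 11.4 RPM in GFP_KD. The inputs of this bin thus differed in the direction that adds to its fall, with 32 recovered reads in *enok*_KD and 16 in GFP_KD. At 2217001 the IP was 16.7 RPM in *enok*_KD and 147 RPM in GFP_KD, with inputs of 9.10 RPM in *enok*_KD and 7.81 RPM in GFP_KD.

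Many falls of 4-fold or more came in runs of adjoining bins. The longest run, of 9 bins, extended from 2309001 to 2318000, where median occupancy was 1.81 in *enok*_KD and 4.43 in GFP_KD. Runs of 5 bins extended from 2213001 to 2218000 (1.60 in *enok*_KD and 5.01 in GFP_KD) and from 2225001 to 2230000 (0.85 in *enok*_KD and 4.16 in GFP_KD). At the 2-fold limit, runs of 14 and 16 bins spanned 2204001 to 2218000 and 2309001 to 2325000. The change of a bin correlated with that of the adjoining bin in 42AB (Pearson's r = 0.74 over 107 pairs), and less so in the other clusters (r = 0.33 over 148 pairs). For the inputs r was 0.03 in 42AB and 0.01 in the other clusters. All pairs come from the same 4 libraries.

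Only 5 bins of 42AB were not lower in *enok*_KD, and none of them lay between 2160001 and 2320000. They started at 2144349, 2146001, 2355001, 2374001 and 2381001. At 2144349, the first bin, the IP was 27.7 RPM in *enok*_KD and 25.6 RPM in GFP_KD, the inputs were 11.5 RPM in *enok*_KD and 12.7 RPM in GFP_KD, and the change was 0.27 ± 0.32. At 2146001 the IP was 91.3 RPM in *enok*_KD and 86.3 RPM in GFP_KD, the inputs were 21.1 RPM in *enok*_KD and 21.9 RPM in GFP_KD, and the change was 0.13 ± 0.32. All 5 changes were within the counting error.

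The bins of highest occupancy accordingly differed between the knockdowns. Of the 10 highest bins of 42AB in each knockdown, 3 were shared. In *enok*_KD, 6 of the 10 lay between 2320001 and 2360000 and 3 between 2160001 and 2200000, whereas in GFP_KD 7 of the 10 lay between 2200001 and 2240000. The highest bin in *enok*_KD, from 2337001, had an occupancy of 4.37 in *enok*_KD and 5.39 in GFP_KD, which rests on 6 input reads in *enok*_KD and 10 in GFP_KD. The highest bin in GFP_KD, from 2213001, had an occupancy of 2.90 in *enok*_KD and 5.82 in GFP_KD, with 200 IP reads in *enok*_KD, 1929 in GFP_KD and 33 input reads in each.

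Outside the span from 2200001 to 2320000 of 42AB, some bins of high occupancy in both knockdowns changed less. At 2166001 to 2167000 the IP value was 2087 RPM in *enok*_KD and 3002 RPM in GFP_KD, with inputs of 121 RPM in *enok*_KD and 133 RPM in GFP_KD, so occupancy was 4.11 in *enok*_KD and 4.50 in GFP_KD and the change was -0.39. At 2344001 to 2345000 the IP value was 1357 RPM in *enok*_KD and 2498 RPM in GFP_KD, with inputs of 69.7 RPM in *enok*_KD and 71.6 RPM in GFP_KD, so occupancy was 4.28 in *enok*_KD and 5.12 in GFP_KD and the change was -0.84. These bins remained over 16-fold enriched over input in *enok*_KD. They were picked out after their values were seen.

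Of the other 11 clusters, 9 had at least 5 bins. Their median changes ranged from -0.65 to 0.28, and those of the inputs from -0.17 to 0.20. Counting 42AB, 5 of 10 clusters with at least 5 bins had a median below 0 and 5 above 0. The intervals given for single clusters take bins as independent, although adjoining bins of all clusters but 42AB still had the r of 0.33 given above, and are descriptions of the spread over bins. Past 0.20, the largest size of an input median, 5 clusters were lower and 1 was higher in *enok*_KD.

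**Figure D3:**
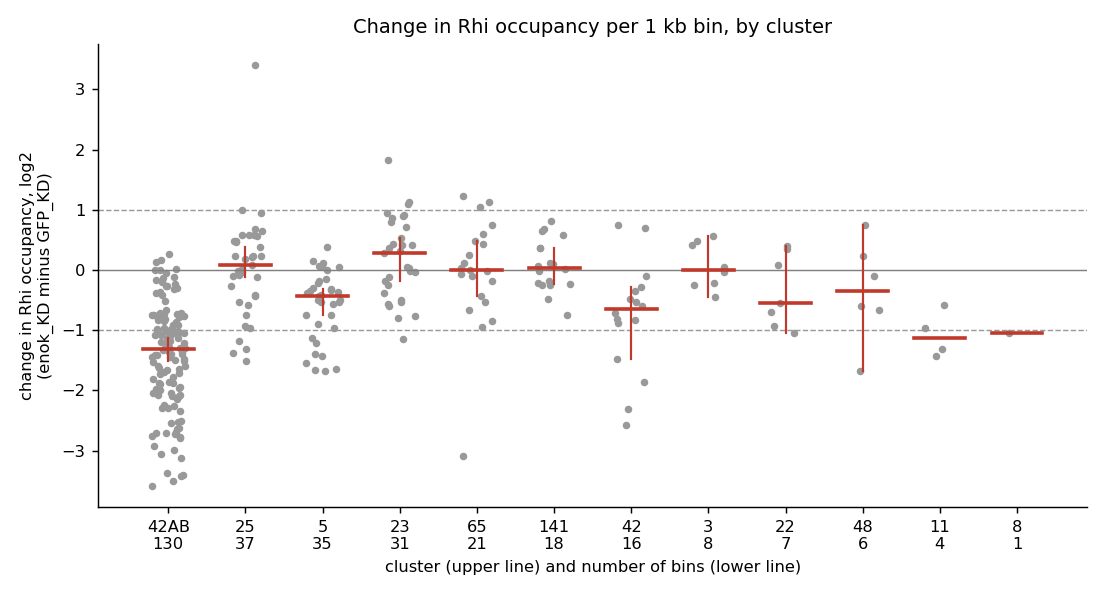
Change in Rhi occupancy (log2, *enok*_KD minus GFP_KD) of each bin, by cluster in order of bin number. Grey points are bins, red bars are medians and red vertical lines are their 95% intervals over bins, given for clusters with at least 5 bins, and dashed lines mark a 2-fold change. The medians run from -1.31 in 42AB to 0.28 in cluster 23, and that of cluster 11, with 4 bins, is -1.14.

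Cluster 5, on 2L from 20148259 to 20227000 (35 bins), kept the highest occupancy of all clusters with at least 5 bins in *enok*_KD and was the second highest in GFP_KD. Its median was 2.62 in *enok*_KD and 3.11 in GFP_KD, and the median change was -0.44 (interval -0.74 to -0.31). Occupancy was lower at 28 of 35 bins (80.0%, against 53.7% of all bins) and fell by 2-fold or more at 8 (22.9%, against 12.8%). Beyond the counting error 11 bins fell (31.4%, against 10.7% of all bins) and 0 rose (against 11.7%). The pooled recovered IP reads were 5125 in *enok*_KD and 9121 in GFP_KD, with 1096 input reads in *enok*_KD and 1068 in GFP_KD.

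Changes in cluster 5 were spread over its length and did not deepen clearly away from its ends. Spearman's rho with the distance to the nearer end was -0.26 over 35 bins, against -0.79 in 42AB. The largest fall of cluster 5, -1.67 ± 0.56 in the bin from 20224001, had an IP of 3.30 RPM in *enok*_KD and 7.85 RPM in GFP_KD. The inputs of this bin were 3.29 RPM in *enok*_KD and 2.45 RPM in GFP_KD, so its occupancy was 0.00 in *enok*_KD and 1.68 in GFP_KD. Its highest change, at 20153001, was 0.39 ± 0.57 and within the counting error. In the bin from 20149001, the highest of cluster 5 in both knockdowns, the IP was 119 RPM in *enok*_KD and 191 RPM in GFP_KD, and occupancy was 3.52 in *enok*_KD and 4.65 in GFP_KD.

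Cluster 42 lies on 3R from 6252 to 22624, at the start of the numbering of this arm, and held 16 bins. Its median occupancy was 0.28 in *enok*_KD and 1.18 in GFP_KD, with a median change of -0.65 (interval -1.48 to -0.28). Occupancy was lower at 14 of 16 bins (87.5%, against 53.7% of all bins). The fall was concentrated in its first 4 bins, from 6252 to 10000. In the first bin the IP was 4.80 RPM in *enok*_KD and 22.4 RPM in GFP_KD, while the input was 7.80 RPM in *enok*_KD and 6.12 RPM in GFP_KD (change -2.57 ± 0.41).

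In the bins from 7001 and 8001 the changes were -1.86 ± 0.36 and -2.31 ± 0.30. At 8001 the IP was 8.26 RPM in *enok*_KD and 45.3 RPM in GFP_KD, with inputs of 11.1 RPM in *enok*_KD and 12.2 RPM in GFP_KD. Median occupancy over the 4 bins was -0.44 in *enok*_KD and 1.64 in GFP_KD, so that in *enok*_KD the IP values were below the inputs. The median mappability index of this cluster was 0.96, so reads could be placed uniquely over nearly all of it. Its highest change, 0.76 ± 0.60 in the bin from 13001, was within the counting error.

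Other clusters with a lower median had few bins. Cluster 11, on 3R from 27895169 to 27899000, had 4 bins, and all were lower (100%, against 53.7% of all bins). Their changes were -0.96 ± 0.38, -1.42 ± 0.40, -1.32 ± 0.32 and -0.59 ± 0.64 in the order of position. At its second bin the IP was 83.4 RPM in *enok*_KD and 224 RPM in GFP_KD, with inputs of 33.9 RPM in *enok*_KD and 33.8 RPM in GFP_KD. Of these 4 bins, 3 were lower beyond the counting error.

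Cluster 8 was a single bin on X from 21586001 to 21587000. Its IP was 294 RPM in *enok*_KD and 498 RPM in GFP_KD, with inputs of 285 RPM in *enok*_KD and 232 RPM in GFP_KD, so occupancy was 0.05 in *enok*_KD and 1.10 in GFP_KD, and the change was -1.05 ± 0.16. The input difference of 0.29 contributed to it. Cluster 22, on X from 19001 to 27378 (7 bins), had a median occupancy of 1.84 in *enok*_KD and 2.30 in GFP_KD, and a median change of -0.54 (interval -1.04 to 0.40). In its bin from 20001 the IP was 11.0 RPM in *enok*_KD and 22.1 RPM in GFP_KD, with inputs of 3.37 RPM in *enok*_KD and 3.30 RPM in GFP_KD (change -1.04 ± 0.46). Of its 7 bins, 3 fell beyond the counting error (42.9%, against 10.7% of all bins) and 4 were lower (57.1%, against 53.7%). Its highest change, 0.40 ± 0.75 in the bin from 27001, was within the counting error.

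Cluster 48, on 3L from 19854001 to 19861000 (6 bins), had a median occupancy of 0.88 in *enok*_KD and 1.69 in GFP_KD, but a median change per bin of -0.34 with a wide interval (-1.68 to 0.75). Its largest fall, -1.68 ± 0.58 at 19856001, went with inputs that differed. The IP was 17.8 RPM in *enok*_KD and 26.0 RPM in GFP_KD, and the input was 10.9 RPM in *enok*_KD and 4.97 RPM in GFP_KD. The IP alone differed by -0.54 at this bin and the input by 1.14. The highest change of this cluster, 0.75 ± 0.51 in the bin from 19857001, was within the counting error.

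The remaining 5 clusters had median changes near or above 0. In cluster 3, on chromosome 4 from 1270001 to 1279000 (8 bins), median occupancy was 1.38 in *enok*_KD and 1.37 in GFP_KD, and the median change was 0.01 (interval -0.44 to 0.57). The bin from 1271001 had an IP of 929 RPM in *enok*_KD and 576 RPM in GFP_KD, but its inputs were 31.5 RPM in *enok*_KD and 14.4 RPM in GFP_KD. Occupancy there was 4.88 in *enok*_KD and 5.33 in GFP_KD, a change of -0.44 ± 0.20, although the IP itself was higher in *enok*_KD. The direction at this bin therefore depended on the input. The highest change of cluster 3, 0.57 ± 0.37 in the bin from 1277001, was within the counting error.

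Cluster 23, on 2L from 22369381 to 22413000 (31 bins), had the highest median change of all, 0.28 (interval -0.19 to 0.53), with an occupancy of 0.61 in *enok*_KD and 0.43 in GFP_KD. Of its 31 bins, 8 rose beyond the counting error (25.8%, against 11.7% of all bins) and 3 fell (9.68%, against 10.7%). A rise of 2-fold or more was seen at 3 bins (9.68%, against 10.2% of all bins). The last 2 shares were near those of all bins. The inputs also differed beyond the counting error at 9 bins (29.0%, against 6.98% of all bins). Its largest rise, 1.82 ± 0.83 at 22400001, rests on 31 IP and 8 input reads in *enok*_KD and 14 IP and 10 input reads in GFP_KD. Another rise of 1.14 ± 0.39 at 22389001 had IP values of 38.9 RPM in *enok*_KD and 29.8 RPM in GFP_KD, with inputs of 19.0 RPM in *enok*_KD and 31.9 RPM in GFP_KD, so that the inputs made up most of it. Its largest fall, -1.15 ± 0.46 in the bin from 22370001, had an IP of 5.54 RPM in *enok*_KD and 9.03 RPM in GFP_KD, with inputs of 6.89 RPM in *enok*_KD and 5.08 RPM in GFP_KD.

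Cluster 65, on 3L from 24353001 to 24388000 (21 bins), changed by a median of 0.01 (interval -0.44 to 0.48). Its bin from 24372001 had an IP of 121 RPM in *enok*_KD and 53.5 RPM in GFP_KD, with inputs of 27.2 RPM in *enok*_KD and 28.2 RPM in GFP_KD. This rise of 1.22 ± 0.25 was the one among the 5 largest outside 42AB that was carried by the IP at a depth of over 90 reads in every library, and an *enok*_KD peak covered 823 bp of the bin where no GFP_KD peak did. A smaller rise in this cluster, 1.14 ± 0.56 at 24366001, rested on 23 to 34 reads per library.

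The largest fall and the largest rise outside 42AB rested on single reads. At 24380001 in cluster 65 the change was -3.08 ± 1.58, from 9 input reads in *enok*_KD and 1 in GFP_KD, while the IP was 3.81 RPM in *enok*_KD and 3.80 RPM in GFP_KD. At 24106001 in cluster 25 the change was 3.41 ± 1.57, from 1 input read in *enok*_KD and 9 in GFP_KD, while the IP was 5.02 RPM in *enok*_KD and 4.51 RPM in GFP_KD. The IP alone differed by 0.01 in the bin of cluster 65 and by 0.15 in the bin of cluster 25.

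Cluster 25, on 3L from 24086324 to 24137471 (37 bins), had a median occupancy of 0.66 in *enok*_KD and 0.47 in GFP_KD and changed by 0.08 (interval -0.11 to 0.38). Beyond the counting error, 1 bin fell (2.70%, against 10.7% of all bins) and 2 rose (5.41%, against 11.7%). The 2 rises include the bin from 24106001, which rests on 1 input read in *enok*_KD. That bin is also among the 15 rises beyond the counting error over all members. The fall, -1.52 ± 0.56 in the bin from 24125001, had an IP of 13.2 RPM in *enok*_KD and 23.5 RPM in GFP_KD, with inputs of 18.2 RPM in *enok*_KD and 11.3 RPM in GFP_KD. Cluster 141, on 2L from 21544534 to 21573000 (18 bins), had a median occupancy of 0.53 in both knockdowns and changed by 0.04 (interval -0.23 to 0.37). None of its bins changed by 2-fold or more in either direction, where 12.8% of all bins fell and 10.2% rose by that much. Its bin from 21549001 rose most, by 0.81 ± 0.26, with an IP of 296 RPM in *enok*_KD and 212 RPM in GFP_KD and inputs of 109 RPM in *enok*_KD and 137 RPM in GFP_KD. Its lowest change, -0.74 ± 0.50 in the bin from 21551001, was within the counting error.

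**Figure D4:**
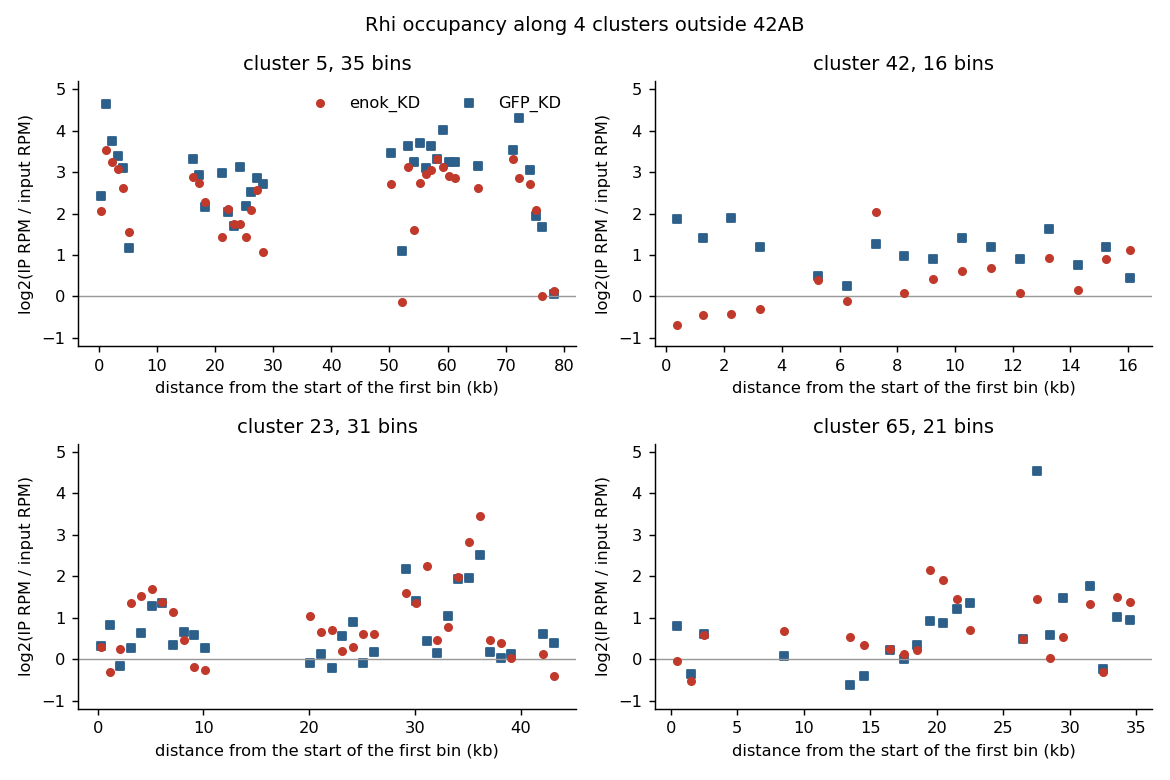
Rhi occupancy (log2 of IP over input) of each bin in *enok*_KD (red circles) and GFP_KD (blue squares) along clusters 5, 42, 23 and 65, against the distance in kb from the start of the first bin. The panels were chosen after the values were seen. The first 4 bins of cluster 42 lie below 0 in *enok*_KD and above 1 in GFP_KD, and the bin near 20 kb in cluster 65 is higher in *enok*_KD.

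The deposited peak lists, 1 for each IP library, are a second reading of the same IPs. An *enok*_KD peak shared at least 1 bp with 117 of the 314 bins (37.3%, Wilson interval 32.1 to 42.7), and a GFP_KD peak with 175 (55.7%, Wilson interval 50.2 to 61.1). Both peaks were present at 110 bins, only the *enok*_KD peak at 7, only the GFP_KD peak at 65 and none at 132. Over all bins of the tables, 371 (15.7%) overlapped an *enok*_KD peak and also 371 a GFP_KD peak, with 116 bins under only an *enok*_KD peak and 116 under only a GFP_KD peak. Without 42AB, 37 of 184 bins (20.1%) lay under an *enok*_KD peak and 55 (29.9%) under a GFP_KD peak.

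In 42AB, 80 bins (61.5%) lay under an *enok*_KD peak and 120 (92.3%) under a GFP_KD peak, and every bin of the first kind was also of the second. The peaks covered 50.9 kb of the bins in *enok*_KD and 103 kb in GFP_KD. From 2200001 to 2240000 they covered 21.1% of the bins' length in *enok*_KD and 93.3% in GFP_KD. From 2144349 to 2160000 the shares were 71.2% in *enok*_KD and 84.4% in GFP_KD. The longest peak of 42AB was 7381 bp in *enok*_KD and 23782 bp in GFP_KD. The peak with the highest fold enrichment lay at 2160314 to 2167694 in *enok*_KD (14.9, −log10 p of 219) and at 2204695 to 2217823 in GFP_KD (22.0, −log10 p of 273).

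The bins of 42AB that kept a peak changed less than those that had one in GFP_KD alone, with a median change of -1.13 where the peak was kept and -1.97 where it was in GFP_KD alone. The peak lists and the change per bin come from the same IP libraries, so one does not support the other.

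Fewer bins lay under an *enok*_KD peak than under a GFP_KD peak in several clusters outside 42AB, among them clusters 5, 42 and 11. Cluster 5 had 16 of 35 bins under an *enok*_KD peak and 30 under a GFP_KD peak, and its strongest peak had a fold enrichment of 11.9 in *enok*_KD and 13.1 in GFP_KD. Cluster 42 had 0 of 16 bins under an *enok*_KD peak and 4 under a GFP_KD peak, the strongest of which spanned 7912 to 8623 with a fold enrichment of 5.49. In cluster 11, 1 of 4 bins lay under an *enok*_KD peak and all 4 under a GFP_KD peak. No peak in either list touched a bin of cluster 25, and the strongest peaks within its span, which lay between bins, had a fold enrichment of 4.59 in *enok*_KD and 6.77 in GFP_KD. The strongest peak had a fold enrichment of 3.79 in *enok*_KD and 3.99 in GFP_KD in cluster 3, and of 4.73 in *enok*_KD and 9.11 in GFP_KD in cluster 22. In cluster 48 the GFP_KD list alone had a peak, of 2.39-fold.

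In 3 clusters more bins lay under an *enok*_KD peak than under a GFP_KD peak. These were cluster 141 (5 in *enok*_KD and 2 in GFP_KD), cluster 65 (3 in *enok*_KD and 1 in GFP_KD) and cluster 23 (7 in *enok*_KD and 6 in GFP_KD), and they held all 7 bins with only an *enok*_KD peak. The strongest peak had a fold enrichment of 8.02 in *enok*_KD and 7.35 in GFP_KD in cluster 141, of 6.09 in *enok*_KD and 2.59 in GFP_KD in cluster 65, and of 10.1 in *enok*_KD and 7.03 in GFP_KD in cluster 23. The longest peak of cluster 65 was 2163 bp in *enok*_KD, from 24372178 to 24374340, and 191 bp in GFP_KD. Fewer peaks can also be called in a shallower library, and the *enok*_KD IP was the shallower of the IPs. The part of depth in these counts was not tested.

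**Figure D5:**
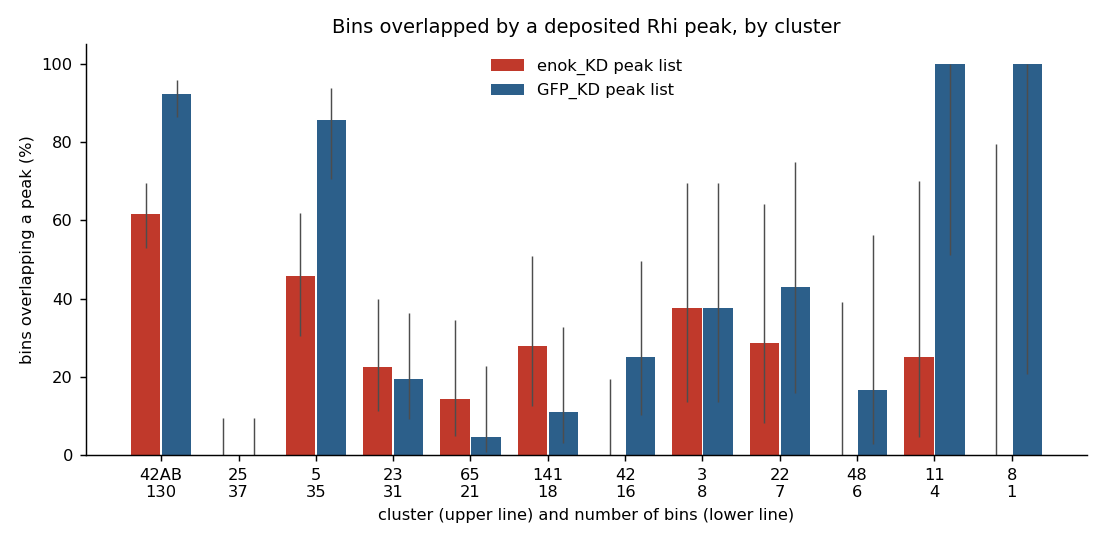
Percentage of the bins of each cluster that overlap a deposited peak by at least 1 bp, for the *enok*_KD list (red) and the GFP_KD list (blue). Error bars are Wilson 95% intervals, and the second line of the axis gives the number of bins. In 42AB the shares are 61.5% in *enok*_KD and 92.3% in GFP_KD, and in cluster 25 both are 0.

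A feature that the rule did not use is mappability. Because the authors divided the reads of a bin by its mappability index, a bin with few uniquely placeable positions has a high RPM from few reads. The index recovered for the members had a median of 0.399, compared with 0.513 over all bins, and is a lower limit. It was 0.325 in 42AB and 0.517 outside it. Over the 314 bins, Spearman's rho of the index with the GFP_KD input was -0.72, and with the change 0.20. Within 42AB rho with the change was 0.08 over 130 bins, and outside it 0.04 over 184 bins. In 42AB the median change was -1.48 at the 39 bins with an index below 0.25 and -1.02 at the 9 bins with an index of 0.75 or more. Outside 42AB it was -0.46 at the 40 bins with an index below 0.25 and between -0.10 and -0.04 in the 3 classes of higher index. Over all members it ran from -0.82 at the lowest index class to -0.15 at the highest. RPM values should not be compared between bins for this reason, whereas occupancy is a ratio in which the index cancels.

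The order of bins by occupancy was partly kept between the knockdowns. Spearman's rho between *enok*_KD and GFP_KD occupancy was 0.78 over all 314 bins, 0.65 over the 130 bins of 42AB and 0.71 over the 184 others. It was 0.82 over the 35 bins of cluster 5 and -0.16 over the 16 bins of cluster 42, whose highest bins in GFP_KD, from 8001 and 6252, fell most. Because the change subtracts GFP_KD occupancy, bins picked as high in GFP_KD tend toward larger falls by construction. No dm3 gene models were used here, and bins are given by position alone.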

How the data were processed

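Per the study's methods and the submitters' processing notes (Trimmomatic, Bowtie2 2.2.1, MACS2), single-end reads were aligned to dm3 without mismatches and unique mappers were kept. In the deposited tables, which keep input and IP apart, the authors gave RPM per 1 kb bin (reads scaled to library depth) over a mappability index. Methods for bins mention pooling of replicates, but here each column held whole multiples of 1 step. The peak lists, deposited per IP library, give a fold enrichment ratio over a control and −log10 p and q scores per peak. MACS2 settings and the control are not given in the sources used here. Peak positions are 1-based, as their length column shows.

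Depth was found from steps among the 300 smallest values in a library. The index was searched from 0.001 to 1, and the smallest index giving whole reads in all 4 libraries (within 0.003 reads) was used. Whole reads resulted for all 2364 bins (100%). A single index was possible in 126 of the 314 member bins. In the others, the reads share a common factor under larger indices, so recovered reads are lower limits and counting SEs upper limits. No count test was run, because each group has 1 library. Occupancy carried no pseudocount. Medians have a 95% interval from binomial order statistics and shares a Wilson interval. A bin was called at 2-fold.

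Named items are every cluster, with medians for those with at least 5 bins, the largest fall and rise of each such cluster, the 5 largest falls and rises outside 42AB, the 5 at each extreme of 42AB, all bins of smaller clusters and the peak with the highest fold enrichment of each cluster with at least 5 bins. The members, windows and lists were chosen with earlier results of these data known. Alternatives concerned the pseudocount, low values, input, centring, summary, fold limit, overlap and cluster 1. Of these, 3 settings were chosen after seeing the data. Scripts (Python 3.11.15, numpy 2.4.6, pandas 2.3.3, scipy 1.17.1, matplotlib 3.10.9) were tested on simulated data.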

Additional observations from a re-analysis of the deposited data

How the results depend on the processing

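No paired analysis was possible because there is 1 library in each group. Of 155 alternative values, 28 come from 3 settings chosen after seeing the data. Of the 155, 141 lay inside the 95% interval of the reported median (for counts, inside a factor of 1.5), and 14 lay outside. The changes over all members, in 42AB and outside it kept their direction. The 97 values of single clusters lay inside their intervals, which are wide for small clusters. Cluster 42 (-0.65) ranged from -1.18 (inputs at or above the lower quartile) to -0.31 (larger pseudocount), cluster 22 (-0.54) from -0.94 (at least 20 reads per library) to -0.32 (larger pseudocount), cluster 48 (-0.34) from -0.67 (inputs at or above the lower quartile) to -0.09 (at least 20 reads per library), and cluster 5 (-0.44) from -0.66 (IP alone) to -0.37. Where the setting does not show the cause by its construction, the cause was not tested.

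The change over all members was below 0 in all 12 alternatives, at -0.43 with a pseudocount of 9.25 RPM (the median, which shrinks changes by design), -1.07 from summed RPM, -0.99 from summed reads and -0.39 with every cluster counted once. Outside 42AB it ranged from -0.34 to -0.07 over 12 alternatives, at -0.29 from summed RPM and -0.34 with every cluster counted once. In 42AB it was -1.12 with the larger pseudocount, and -1.44 to -1.12 over 11 alternatives.

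Without 42AB, 23 bins fell by 2-fold or more. The number that rose was 26 at 1.5-fold, 15 beyond the counting error and 24 when the largest index gave the reads. Bins under an *enok*_KD peak numbered 71 with 50% of the bin covered and 37 without 42AB, and those under a GFP_KD peak 55 without 42AB. The medians of clusters 3, 23 and 65 went below 0 in 1 alternative each. Depth limits single bins, where the SE of a change ranged from 0.14 to 1.58.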
